A study of Homo sapiens with 8 samples.

Results

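HPRT1 and 8 other genes that salvage purines and nucleosides or handle the drugs made from them were followed in RNA sequencing of 2 human T-cell acute lymphoblastic leukemia (T-ALL) lines. The 9 genes (HPRT1, APRT, TPMT, NT5C2, ADA, PNP, DCK, SAMHD1 and SLC29A1) were taken by their symbols, and each matched exactly 1 of the 64252 genes in the count table of each line. 6T-CEM (derived from CCRF-CEM) and J.gamma1 (derived from Jurkat) cells had received either a control short hairpin RNA (sh-NC) or one against LDB1 (sh-LDB1), the cofactor that bridges transcription factor complexes. All 4 groups had thus been infected with a pLKO.1 lentivirus and selected with puromycin, and each group held 2 libraries, 8 in all. According to the methods, infected cells were in general harvested 3 days after selection. The hairpin against LDB1 carried by the sequenced cells is not named in the sources used here, and the labels give no treatment with a nucleoside or base analogue. Neither do they give the HPRT1 genotype of either line, which counts per gene cannot show. Each line stands for itself, and since each had its own table, line and table cannot be told apart.

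Cells build purine nucleotides either from small precursors (de novo synthesis) or by salvage of bases and nucleosides, and lymphocytes rely on salvage enzymes to keep deoxynucleosides from piling up. HPRT1 joins hypoxanthine or guanine to a ribose phosphate, the same reaction that turns the leukemia drugs mercaptopurine and thioguanine into nucleotides, and APRT does so for adenine. TPMT methylates thiopurines and NT5C2 removes the phosphate from purine nucleotides and from thiopurine nucleotides. ADA deaminates adenosine and deoxyadenosine, and PNP splits inosine, guanosine and their deoxy forms into base and sugar. SLC29A1 carries nucleosides and drugs such as cytarabine across the membrane, DCK adds their first phosphate, and SAMHD1 breaks down deoxynucleoside triphosphates, that of cytarabine among them.

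The promoters of 3 of the 5 genes that were higher in LDB1-knockdown J.gamma1 cells, HPRT1, APRT and TPMT, are shown. They were picked after the motifs were seen, since these runs hold repeated GGGCGG boxes, the core of a motif bound by SP1 and its relatives, and no CANNTG (E-box) or GATA motif, the DNA motifs of factors that work in complexes with LDB1. Each run covers the 250 bases before and 50 bases after an annotated start (RefSeq, GRCh38.p14), read along the gene, with GGGCGG on either strand in capitals. The regions are chrX:134459915-134460214 (plus strand) for HPRT1, chr16:88811879-88812178 (minus strand) for APRT and chr6:18155120-18155419 (minus strand) for the first of 2 starts of TPMT.
HPRT1: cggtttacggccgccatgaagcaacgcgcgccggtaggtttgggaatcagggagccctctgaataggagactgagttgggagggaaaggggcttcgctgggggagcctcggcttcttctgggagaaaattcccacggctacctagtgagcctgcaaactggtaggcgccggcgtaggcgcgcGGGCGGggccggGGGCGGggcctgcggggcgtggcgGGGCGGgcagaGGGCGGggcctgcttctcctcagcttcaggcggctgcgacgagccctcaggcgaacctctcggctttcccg
APRT: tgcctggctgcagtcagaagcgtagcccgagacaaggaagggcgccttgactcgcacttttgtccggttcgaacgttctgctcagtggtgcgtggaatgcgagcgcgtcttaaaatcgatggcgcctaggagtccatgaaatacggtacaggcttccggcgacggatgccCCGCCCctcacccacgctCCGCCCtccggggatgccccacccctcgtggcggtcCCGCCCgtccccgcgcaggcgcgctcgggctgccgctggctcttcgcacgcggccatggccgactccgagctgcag
TPMT: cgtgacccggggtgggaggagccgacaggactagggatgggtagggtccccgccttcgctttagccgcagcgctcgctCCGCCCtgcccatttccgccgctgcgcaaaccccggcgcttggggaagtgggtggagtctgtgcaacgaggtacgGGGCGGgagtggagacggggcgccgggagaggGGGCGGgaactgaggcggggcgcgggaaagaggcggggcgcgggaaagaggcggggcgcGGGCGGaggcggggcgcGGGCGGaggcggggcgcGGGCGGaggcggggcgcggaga
The HPRT1 run holds 4 GGGCGG boxes, the APRT run 3 and the TPMT run 6. Of 35114 promoters of the same length, 45.0% hold at least 1 such box, 68.7% a CANNTG and 49.7% a GATA on either strand. The run of the other TPMT start overlaps the first and holds 1 CANNTG and 6 GGGCGG boxes. SAMHD1 was the 1 gene of the 9 that was almost silent, and its run (chr20:36951659-36951958, minus strand) is shown with each CG dinucleotide in capitals, the site of DNA methylation.
SAMHD1: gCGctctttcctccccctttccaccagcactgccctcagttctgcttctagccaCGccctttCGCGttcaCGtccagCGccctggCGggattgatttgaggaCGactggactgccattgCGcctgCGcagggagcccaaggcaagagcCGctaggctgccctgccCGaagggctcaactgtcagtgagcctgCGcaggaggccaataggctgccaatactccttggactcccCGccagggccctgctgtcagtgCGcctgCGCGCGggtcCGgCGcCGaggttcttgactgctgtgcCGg
This run holds 22 CG dinucleotides, against a median of 14 over all promoters, and 0 GGGCGG boxes, 1 CANNTG and 0 GATA. The runs of the expressed genes HPRT1 (30), APRT (36), DCK (37), TPMT (42 and 41), ADA (47) and SLC29A1 (27 and 34) hold more CG dinucleotides than that of SAMHD1, and the run of PNP (15) holds fewer. Methylation was not measured in the files used here. Among the other genes, the run of ADA, which was higher in LDB1-knockdown J.gamma1 cells too, holds 5 GGGCGG boxes, 1 CANNTG and 0 GATA. The run of DCK holds 3 boxes and 2 CANNTG, and that of PNP 2 boxes, 1 CANNTG and 1 GATA. SLC29A1, also higher in LDB1-knockdown J.gamma1 cells, has 3 boxes in each of its 2 runs, with 2 CANNTG in one and 1 CANNTG and 1 GATA in the other. The 3 runs of NT5C2 hold 0, 4 and 0 boxes and up to 3 CANNTG and 3 GATA, with 3, 41 and 0 CG dinucleotides. These matches describe letters and show no binding, and a link between motifs and the rise in J.gamma1 was not tested.

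Each library held 26160492 to 30604977 counts. Within a group, log2 expression of the replicates correlated across genes with a Pearson r of 0.986 to 0.987. The labels do not say whether replicates came from separate cultures, so p-values measure only the spread between these samples, which may be technical. LDB1 itself fell to 33.1% of its control level in 6T-CEM (log2 fold change -1.60, standard error 0.071) and to 54.0% in J.gamma1 (-0.89, standard error 0.075). Of 8 T-lineage markers, CD3E, CD3D, CD3G, LCK, ZAP70, CD5 and CD7 were present in every library, and CD2 was as low as 0.309 CPM (normalised counts per 1 M counts of a library) in 6T-CEM. The summed CPM of the 8 markers was 1516 to 1577 in 6T-CEM sh-NC, 1934 to 1956 in 6T-CEM sh-LDB1, 1972 to 2024 in J.gamma1 sh-NC and 2384 to 2460 in J.gamma1 sh-LDB1. Of other lineages, 4 B-lineage markers summed to 26.3 to 26.5 CPM in 6T-CEM sh-NC, 38.4 to 43.1 in 6T-CEM sh-LDB1, 65.4 to 66.7 in J.gamma1 sh-NC and 75.6 to 75.8 in J.gamma1 sh-LDB1. Nearly all of this was CD79A, at 23.2 to 75.6 CPM, while PAX5 reached 3.27 CPM in 6T-CEM and MS4A1 stayed at or below 0.102 CPM. These sums move with line and knockdown, and their part in the results was not tested. The myeloid markers summed to at most 2.196 CPM, the epithelial ones to at most 1.13 CPM and the erythroid ones to at most 0.630 CPM, with HBB at 0 in all 8 libraries. In bulk RNA, fewer cells of a kind and less RNA per cell cannot be told apart.

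After LDB1 knockdown, more salvage genes were called in J.gamma1 than in 6T-CEM, and so were more of all genes. In LDB1-knockdown 6T-CEM cells, 2 of the 8 genes that could be tested passed, SLC29A1 and NT5C2, and both were lower (1 of 8, SLC29A1, without either of the sh-NC libraries). In LDB1-knockdown J.gamma1 cells 6 of 8 passed: APRT, TPMT, ADA, SLC29A1 and HPRT1 were higher and PNP was lower. SLC29A1 was therefore lower in one line and higher in the other. Calls were made by edgeR's quasi-likelihood test, with p adjusted by Benjamini-Hochberg over every gene tested and a threshold of 0.05. By that rule 31.3% of all genes tested were called in 6T-CEM (16.2% lower) and 51.5% in J.gamma1 (25.0% higher, 26.5% lower), the shares against which the counts of 2 and 6 of 8 are read. No change went beyond a log2 of 1, which 5.13% and 13.9% of all genes did with the adjusted p. Over the 8 genes the median log2 fold change came to -0.064 in 6T-CEM and to 0.24 in J.gamma1, against 0.0027 and -0.00025 over all genes tested.

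**Figure D1:**
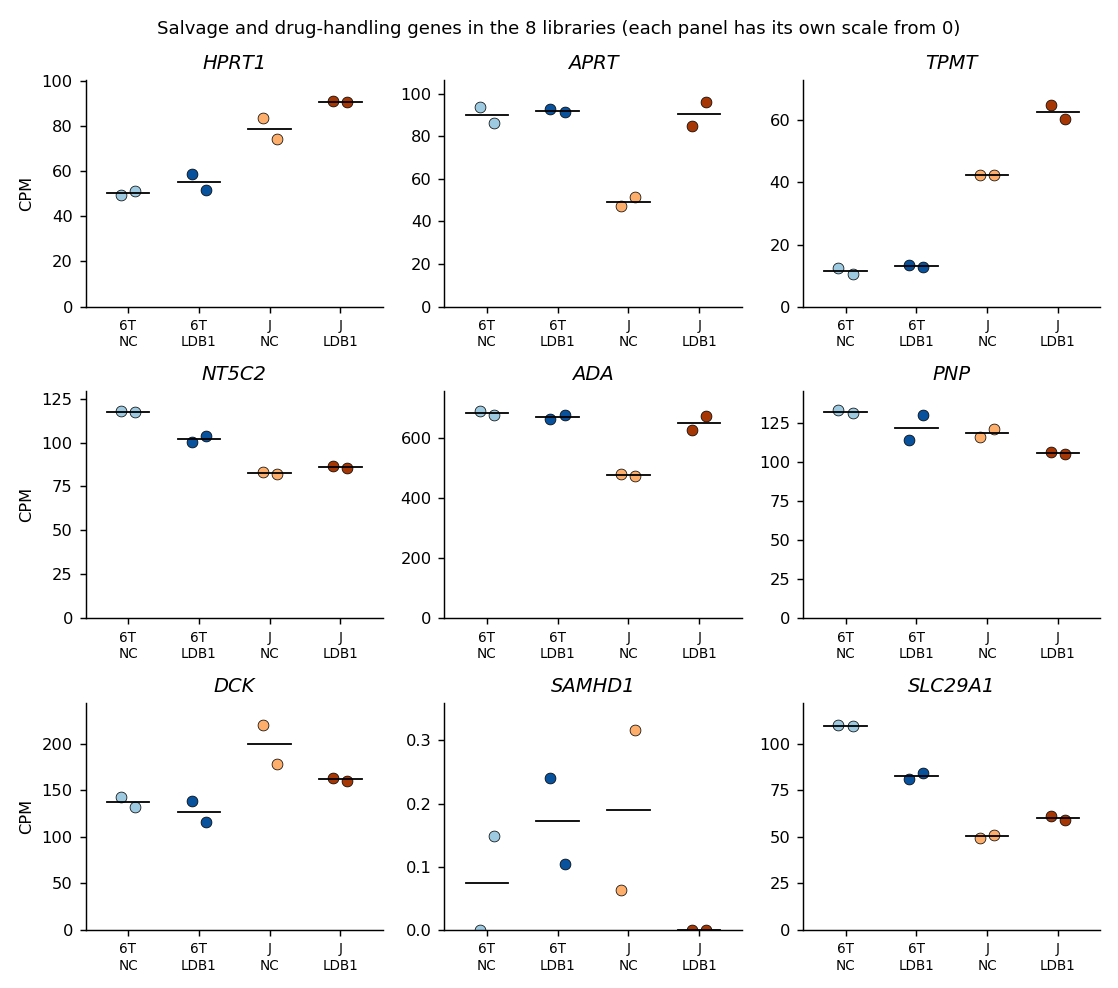
Expression of the 9 genes in the 8 libraries, in TMM-normalised CPM on a scale from 0 in each panel; points are libraries, bars are means of 2, 6T is 6T-CEM, J is J.gamma1, NC is sh-NC and LDB1 is sh-LDB1. APRT, TPMT, ADA and SLC29A1 sit higher in both J.gamma1 sh-LDB1 libraries than in both controls, SLC29A1 and NT5C2 sit lower in both 6T-CEM sh-LDB1 libraries, and SAMHD1 stays at or below 0.317 CPM throughout.

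HPRT1 was a moderately expressed gene in both lines, higher in J.gamma1 than in 6T-CEM. HPRT1 (ENSG00000165704, chromosome X of GRCh38, 134460165 to 134520513, plus strand, 9 exons) had 49.5 and 51.1 CPM in 6T-CEM sh-NC libraries, against 58.6 and 51.5 CPM with sh-LDB1. In J.gamma1 it had 83.4 and 74.3 CPM with sh-NC and 91.0 and 90.6 CPM with sh-LDB1. All 4 J.gamma1 libraries were above all 4 of 6T-CEM, and within each line both LDB1-knockdown libraries were above both controls. Between the control groups, HPRT1 was 1.57-fold higher in J.gamma1 (log2 difference 0.65, standard error 0.077, adjusted p = 1.05e-05 by edgeR's quasi-likelihood test). Knockdown gave a log2 change of 0.13 in 6T-CEM (95% confidence interval -0.04 to 0.30, adjusted p = 0.238), which did not pass the test. In J.gamma1 HPRT1 rose to 116% of control, with a log2 fold change of 0.21 (95% confidence interval 0.06 to 0.35, adjusted p = 0.0211). That call was lost without sh-NC replicate 2 (log2 fold change 0.12, adjusted p = 0.204), without sh-LDB1 replicate 1 (adjusted p = 0.0718), without sh-LDB1 replicate 2 (0.0668) and with no filter on low counts (0.0624). The change did not differ detectably between the lines (difference 0.074, adjusted p = 0.700). No other annotated exon overlaps HPRT1, and its pseudogenes HPRT1P1, HPRT1P2 and HPRT1P3 had 0 counts in every library.

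APRT, the adenine counterpart of HPRT1, showed the largest response of the 9 genes. APRT (ENSG00000198931, chromosome 16, 88809339 to 88811937, minus strand, 5 exons) had 47.2 and 51.5 CPM in J.gamma1 sh-NC and 84.6 and 96.2 CPM in J.gamma1 sh-LDB1. In 6T-CEM it had 93.7 and 86.4 CPM with sh-NC and 92.6 and 91.1 CPM with sh-LDB1. The J.gamma1 controls were the low group, and of the J.gamma1 knockdown libraries 1 lay above and 1 just below the 4 libraries of 6T-CEM. APRT rose 1.84-fold in J.gamma1 (log2 fold change 0.88, standard error 0.076, adjusted p = 4.64e-06). In 6T-CEM the groups overlapped and the log2 fold change was 0.033 (95% confidence interval -0.11 to 0.18, adjusted p = 0.752). In the controls, J.gamma1 held 54.8% of the 6T-CEM level (log2 difference -0.87, standard error 0.075, adjusted p = 5.95e-07).

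TPMT, which methylates thiopurines, differed most between the lines in the upward direction. TPMT (ENSG00000137364, chromosome 6, 18128311 to 18155077, minus strand, 9 exons) had 12.4 and 10.5 CPM in 6T-CEM sh-NC against 42.5 and 42.2 CPM in J.gamma1 sh-NC. With sh-LDB1 it had 13.3 and 12.7 CPM in 6T-CEM and 64.9 and 60.5 CPM in J.gamma1. Every J.gamma1 library was above every 6T-CEM library, and the J.gamma1 knockdown libraries were the highest. The control groups differed 3.70-fold (log2 difference 1.89, standard error 0.095, adjusted p = 4.84e-09). Knockdown raised TPMT 1.49-fold in J.gamma1 (log2 fold change 0.57, standard error 0.071, adjusted p = 5.93e-05), while the log2 fold change of 0.19 in 6T-CEM (95% confidence interval -0.12 to 0.50, adjusted p = 0.369) did not pass. In 6T-CEM the counts were only 283 to 389 per library, which limits the precision there. The difference of the changes, 0.38, missed the threshold (adjusted p = 0.0545) and passed it without 6T-CEM sh-NC replicate 2 (0.51, adjusted p = 0.0205), while it was 0.27 (adjusted p = 0.206) without 6T-CEM sh-NC replicate 1.

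NT5C2, the nucleotidase that takes the phosphate off again, was called lower in LDB1-knockdown 6T-CEM cells and had no call in J.gamma1. NT5C2 (ENSG00000076685, chromosome 10, 103087185 to 103277605, minus strand, 19 exons) had 118 and 117 CPM in 6T-CEM sh-NC and 100.4 and 104 CPM in 6T-CEM sh-LDB1. In J.gamma1 it had 83.3 and 82.2 CPM with sh-NC and 86.6 and 85.7 CPM with sh-LDB1. The groups did not overlap in either line, with the knockdown libraries lower in 6T-CEM and slightly higher in J.gamma1. NT5C2 fell in 6T-CEM with a log2 change of -0.20 (standard error 0.061, adjusted p = 0.0222). The call was lost without 6T-CEM sh-NC replicate 1 (adjusted p = 0.102), sh-NC replicate 2 (0.0939) or sh-LDB1 replicate 1 (0.121), and with library totals as the only scaling (0.0569). In J.gamma1 the log2 fold change of 0.064 (95% confidence interval -0.06 to 0.18, adjusted p = 0.353) did not pass. The J.gamma1 controls held 70.3% of the 6T-CEM level (log2 difference -0.51, standard error 0.051, adjusted p = 2.27e-06). NT5C2 shares 452 exon bases with INA and 2724 with CNNM2 on the opposite strand, and the strand setting of the counting is not given in the sources used here. INA had 1904 and 1929 counts in 6T-CEM sh-NC, 1378 and 1397 in 6T-CEM sh-LDB1 and 229 to 292 in J.gamma1, lower where NT5C2 was lower. CNNM2 had 425 and 378 counts in 6T-CEM sh-NC, 438 and 560 in 6T-CEM sh-LDB1, 772 and 756 in J.gamma1 sh-NC and 567 and 536 in J.gamma1 sh-LDB1, and was not lower where NT5C2 was lower. The part of either gene in the result was not tested.

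ADA had the most counts of the 9 genes in every library, and it rose in LDB1-knockdown J.gamma1 cells. ADA (ENSG00000196839, chromosome 20, 44584896 to 44652252, minus strand, 12 exons) had 479 and 474 CPM in J.gamma1 sh-NC and 626 and 673 CPM in J.gamma1 sh-LDB1. In 6T-CEM it had 688 and 674 CPM with sh-NC and 663 and 677 CPM with sh-LDB1. As for APRT, the J.gamma1 controls were the low group, and one knockdown library of J.gamma1 reached the range of 6T-CEM. The rise in J.gamma1 was 1.37-fold (log2 fold change 0.45, standard error 0.046, adjusted p = 1.46e-05). In 6T-CEM the groups overlapped, with a log2 fold change of -0.020 (95% confidence interval -0.13 to 0.09, adjusted p = 0.807). The J.gamma1 controls held 69.9% of the 6T-CEM level (log2 difference -0.52, standard error 0.044, adjusted p = 6.14e-07). PKIG shares 853 exon bases with ADA on the opposite strand and had at most 8.77% of its counts.

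PNP, which acts after ADA, did not follow it. PNP (ENSG00000198805, chromosome 14, 20461992 to 20477094, plus strand, 6 exons) had 116 and 121 CPM in J.gamma1 sh-NC and 106 and 105 CPM in J.gamma1 sh-LDB1. In 6T-CEM it had 133 and 131 CPM with sh-NC and 114 and 130.2 CPM with sh-LDB1. The knockdown libraries were the lower ones in both lines, but one of 6T-CEM lay close to its controls. PNP fell to 89.5% of control in J.gamma1 (log2 fold change -0.16, standard error 0.051, adjusted p = 0.0229). The call was lost by DESeq2 (adjusted p = 0.0668), with library totals as the only scaling (0.0567), and without J.gamma1 sh-NC replicate 2 (0.130), sh-LDB1 replicate 1 (0.0631) or sh-LDB1 replicate 2 (0.104). In 6T-CEM the log2 fold change was -0.11 (95% confidence interval -0.26 to 0.04, adjusted p = 0.257). The control groups were the closest of the 8 genes, with a log2 difference of -0.16 (adjusted p = 0.0456) that was lost in 10 of 15 alternatives. These include each fit without 1 sh-NC library or 1 J.gamma1 sh-LDB1 library, with adjusted p between 0.0661 and 0.223, and it came to -0.011 (adjusted p = 0.883) with library totals only.

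SLC29A1, the equilibrative carrier of nucleosides, was the one gene called in both lines, in opposite directions. SLC29A1 (ENSG00000112759, chromosome 6, 44219553 to 44234142, plus strand, 13 exons) had 110.1 and 109.9 CPM in 6T-CEM sh-NC and 81.4 and 84.5 CPM in 6T-CEM sh-LDB1. In J.gamma1 it had 49.5 and 51.0 CPM with sh-NC and 61.3 and 59.0 CPM with sh-LDB1. The groups were apart in both lines, and the lines were closer with knockdown than without, with every 6T-CEM library above every J.gamma1 library. SLC29A1 fell to 75.6% of control in 6T-CEM (log2 fold change -0.40, standard error 0.063, adjusted p = 0.000201). It rose 1.20-fold in J.gamma1 (log2 fold change 0.27, standard error 0.067, adjusted p = 0.00652). The J.gamma1 controls held 45.7% of the 6T-CEM level (log2 difference -1.13, standard error 0.056, adjusted p = 4.13e-09). No other annotated exon overlaps SLC29A1.

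DCK, which activates cytarabine and other deoxynucleoside drugs, was higher in J.gamma1, where its control libraries were further apart than its knockdown libraries. DCK (ENSG00000156136, chromosome 4, 70992538 to 71030914, plus strand, 7 exons) had 221 and 178 CPM in J.gamma1 sh-NC and 163 and 160.0 CPM in J.gamma1 sh-LDB1. In 6T-CEM it had 143 and 132 CPM with sh-NC and 139 and 116 CPM with sh-LDB1. Both knockdown libraries lay below both controls in J.gamma1, and the groups overlapped in 6T-CEM. The log2 fold change in J.gamma1 was -0.30 (95% confidence interval -0.57 to -0.024, adjusted p = 0.0697), which did not pass. It passed by DESeq2 (adjusted p = 0.00242) and without J.gamma1 sh-NC replicate 2 (log2 fold change -0.45, adjusted p = 7.49e-06), the lower of the controls. Without sh-NC replicate 1, the higher of them, it was -0.13 (adjusted p = 0.109). In 6T-CEM it was -0.11 (95% confidence interval -0.29 to 0.08, adjusted p = 0.383), and -0.24 (adjusted p = 0.0418) without sh-LDB1 replicate 1. The control groups differed 1.45-fold (log2 difference 0.54, standard error 0.116, adjusted p = 0.00407). DCK shares 199 exon bases with MOB1B on the same strand, and MOB1B had up to 81.9% as many counts as DCK. MOB1B had 4727 and 3930 counts in J.gamma1 sh-NC against 3742 and 3826 with sh-LDB1, the higher sh-NC replicate being that of DCK too, and its part in the DCK values was not tested.

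SAMHD1, the triphosphatase that opposes cytarabine, was close to silent. SAMHD1 (ENSG00000101347, chromosome 20, 36890229 to 36951893, minus strand, 16 exons) had 0 and 4 counts in 6T-CEM sh-NC, 7 and 3 in 6T-CEM sh-LDB1, 2 and 10 in J.gamma1 sh-NC, and 0 and 0 in J.gamma1 sh-LDB1. It did not pass the filter on low counts in any fit and was not tested. A count of 0 allows up to 3 counts, 0.107 and 0.102 CPM in the J.gamma1 sh-LDB1 libraries, and no change could be detected at this depth. TLDC2, which shares 1068 exon bases with it on the opposite strand, had at most 6 counts.

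**Figure D2:**
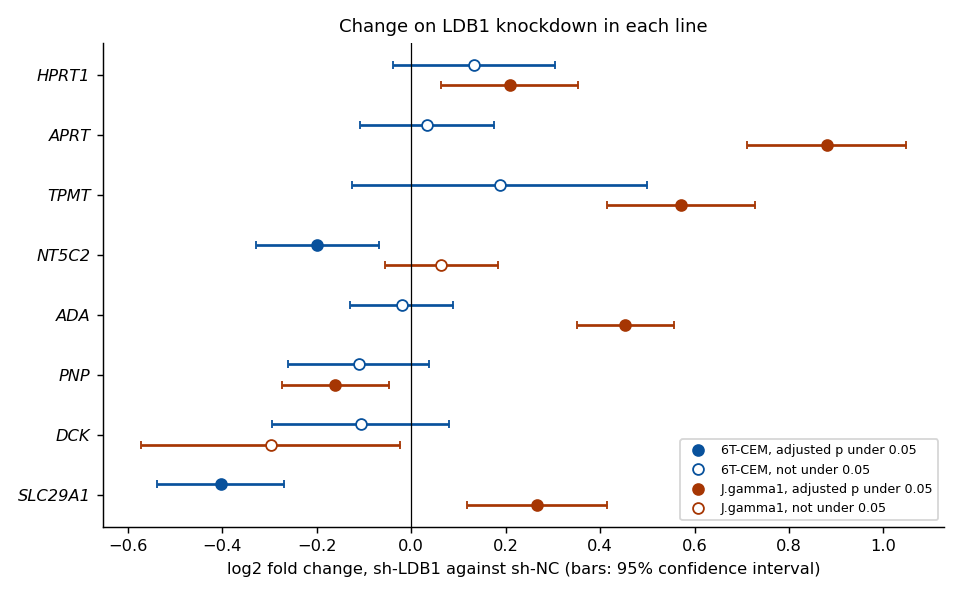
Log2 fold change of the 8 tested genes in LDB1-knockdown against control cells (horizontal axis), in 6T-CEM (blue) and J.gamma1 (brown), with 95% confidence intervals as bars and filled points for an adjusted p under 0.05. APRT and ADA lie to the right in J.gamma1 and near 0 in 6T-CEM, and SLC29A1 lies on opposite sides. TPMT lies to the right in J.gamma1 and less far to the right in 6T-CEM, where its wide interval spans 0.

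Whether the lines responded differently was tested directly, as the change in J.gamma1 minus that in 6T-CEM in a fit to all 8 libraries. Of the 8 genes, 4 differed, all with the more positive change in J.gamma1, where 24.4% of all genes tested differed (12.0% in that direction), and 0 of 8 differed by more than a log2 of 1, against 5.86% of all genes. The difference was 0.84 for APRT (standard error 0.104, adjusted p = 0.000130), 0.67 for SLC29A1 (standard error 0.079, adjusted p = 9.52e-05), 0.47 for ADA (standard error 0.063, adjusted p = 0.000222) and 0.26 for NT5C2 (standard error 0.071, adjusted p = 0.0190). The first 3 kept their call in every alternative without a fold threshold. That of NT5C2 was lost in 5 of the 8 fits without 1 library, those without 6T-CEM sh-LDB1 replicate 1 or any 1 of the 4 J.gamma1 libraries (adjusted p between 0.0501 and 0.0714). For PNP the difference was -0.051 (adjusted p = 0.763) and for DCK -0.19 (adjusted p = 0.471). The median standard error of the difference was 0.097 over the 8 genes, against 0.226 over all genes tested. LDB1 fell less in J.gamma1 (difference 0.70, adjusted p = 0.000237), which moves with line, and its part in these differences was not tested.

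In the control groups all 8 genes differed between the lines, where 65.7% of all genes tested did. TPMT, HPRT1 and DCK were higher in J.gamma1 (34.6% of all genes), and SLC29A1, APRT, ADA, NT5C2 and PNP were higher in 6T-CEM (31.1% of all genes were lower in J.gamma1). Only TPMT and SLC29A1 differed by more than a log2 of 1, which 32.4% of all genes did. The median standard error was 0.069 over the 8 genes, against 0.160 over all genes tested. The part of this precision in the share called was not tested. The control groups of both comparisons are the same libraries, so the 3 genes that were low in J.gamma1 controls and rose there on knockdown (APRT, ADA and SLC29A1) are not independent pairs of values. With library totals as the only scaling the median of all genes shifted by 0.14 towards J.gamma1.

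**Figure D3:**
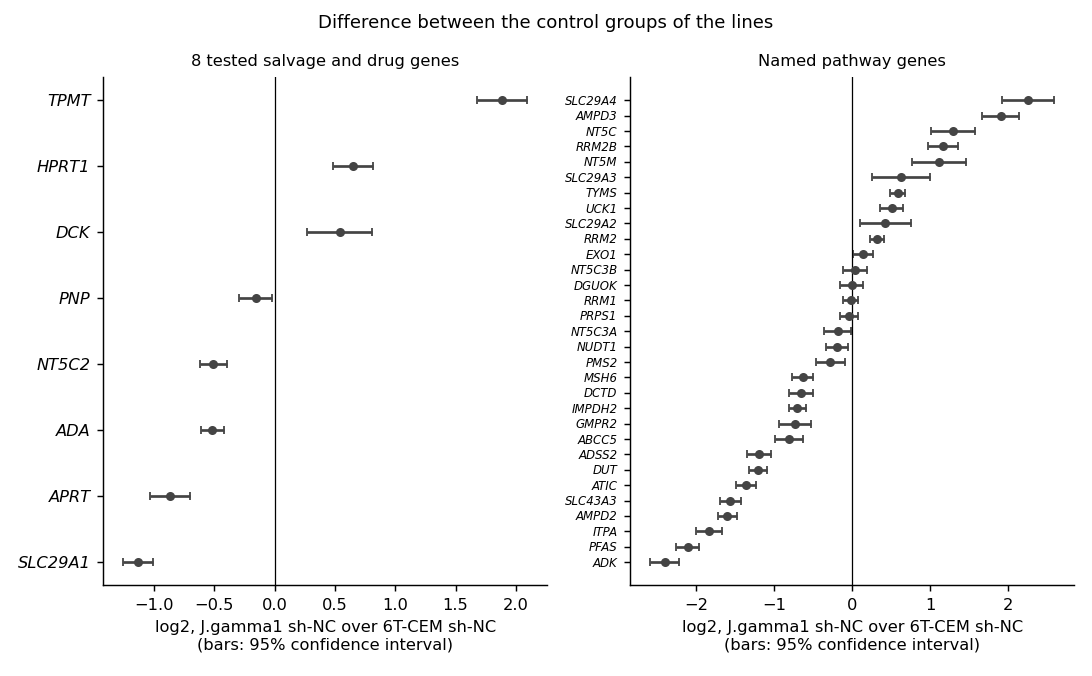
Log2 difference between J.gamma1 and 6T-CEM control libraries (horizontal axis, bars are 95% confidence intervals) for the 8 tested genes on the left and named genes of the surrounding pathways on the right. TPMT at 1.89 and SLC29A1 at -1.13 are the ends of the left panel. Among the genes drawn on the right, ADK at -2.40 and SLC29A4 at 2.25 are the ends. NT5E, with 0 counts in the 6T-CEM controls, and UPP1, with at most 3, are left out, as are genes not reported here.

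Levels can be compared between genes only per length, here as CPM per kilobase of the Ensembl canonical transcript. In 6T-CEM controls the order was ADA (455), APRT (96.7), PNP (89.5), DCK (54.8), SLC29A1 (52.8), HPRT1 (36.1), NT5C2 (33.4), TPMT (3.60) and SAMHD1 (0.016). DCK and SLC29A1 overlapped between libraries there, and the other neighbours did not. In J.gamma1 controls it was ADA (318), PNP (80.4), DCK (79.6), HPRT1 (56.5), APRT (53.0), SLC29A1 (24.1), NT5C2 (23.5), TPMT (13.3) and SAMHD1 (0.041). PNP with DCK, and HPRT1 with APRT, overlapped between libraries. On this length HPRT1 thus ranked below APRT in 6T-CEM and beside it in J.gamma1. The transcript length decides part of this order. An alternative chosen after seeing the data merged the exons of all annotated transcripts. ADA then fell to 55.9 in 6T-CEM and 39.1 in J.gamma1, where DCK (64.3) and HPRT1 (48.9) came first. HPRT1 then lay above APRT (27.5) in J.gamma1 and still below it in 6T-CEM (31.2 against 50.1).

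**Figure D4:**
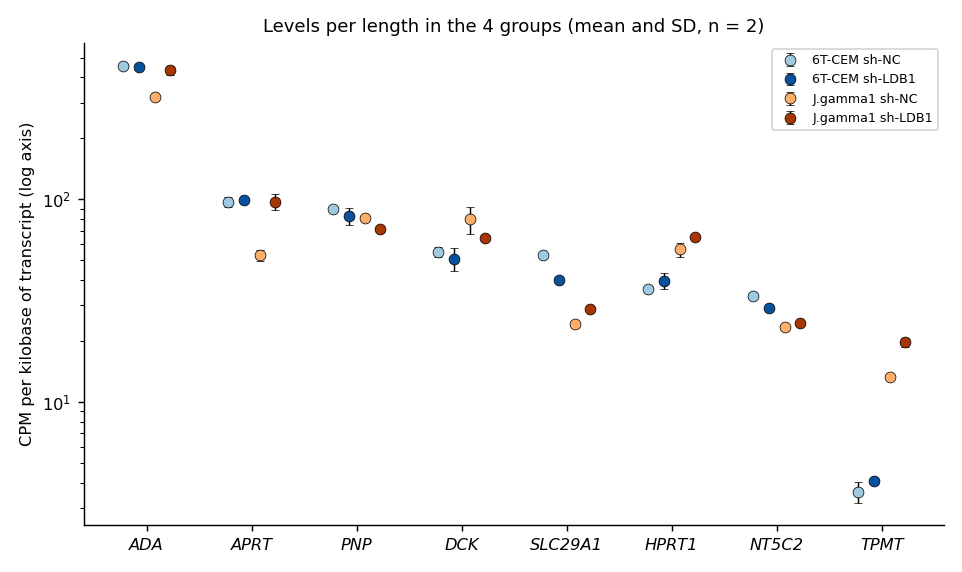
Level of 8 genes in the 4 groups as CPM per kilobase of transcript on a log axis, with points for the means of 2 libraries and bars for the SD; SAMHD1, at or under 0.041 in the controls, is left out. ADA stands above all others in every group on this length, and TPMT lies lowest with the widest gap between the lines.

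Around these enzymes, 67 other genes of purine and pyrimidine handling were read in 6 lists, each with a row in the tables. In 6T-CEM 54 could be tested, and 5 were higher and 21 lower in LDB1-knockdown cells (48.1% called, against 31.3% of all genes). Without 6T-CEM sh-NC replicate 1, 15 genes were called in place of 26. In J.gamma1 57 could be tested, with 16 higher and 21 lower (64.9% against 51.5%). Over all listed genes the median log2 fold change came to -0.15 in 6T-CEM and to -0.020 in J.gamma1.

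Purine salvage and interconversion, the list nearest to HPRT1, had 1 gene higher and 4 lower of 14 tested in 6T-CEM, and 6 higher and 4 lower of 15 in J.gamma1, with medians of -0.084 and -0.016. The shares called were 35.7% and 66.7%, against 31.3% and 51.5% of all genes. AMPD2, which deaminates AMP, rose in both lines, from 120 to 152 CPM in 6T-CEM (log2 change 0.34, adjusted p = 0.000485) and from 39.7 to 130 CPM in J.gamma1 (1.71, adjusted p = 6.86e-09). The lines differed by 1.37 in that change (adjusted p = 4.97e-07). ADK, adenosine kinase, rose only in the test of J.gamma1, from 22.1 to 36.2 CPM (0.72, adjusted p = 0.000152), with a log2 change of -0.087 in 6T-CEM (adjusted p = 0.308) and a tested difference of 0.80 (adjusted p = 0.000361). GMPR2, which turns GMP back to IMP, fell from 77.0 to 52.7 CPM in 6T-CEM (-0.54, adjusted p = 0.000119) and from 46.4 to 28.6 CPM in J.gamma1 (-0.69, adjusted p = 9.99e-05). PRPS1, which makes the ribose phosphate that HPRT1 and APRT use, fell by similar amounts, from 129 to 99.0 CPM in 6T-CEM (-0.38, adjusted p = 0.000235) and from 125 to 98.2 CPM in J.gamma1 (-0.34, adjusted p = 0.000322). IMPDH2, the enzyme that commits IMP to guanine nucleotides, and DGUOK, the mitochondrial deoxyguanosine kinase, passed in neither line (adjusted p of at least 0.294). Of this list, 4 genes were not tested in either line, among them MTAP, the phosphorylase that supplies adenine to APRT, named here after its values were seen, with at most 7 counts in any library.

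The 6 genes of de novo purine synthesis all had a more positive change in J.gamma1, where their control levels were lower, than in 6T-CEM. In J.gamma1 5 of 6 rose, with a median of 0.54, while in 6T-CEM 0 rose and 2 fell, with a median of -0.15. Of all genes tested, 25.0% were higher in J.gamma1 and 16.2% lower in 6T-CEM. The difference between the lines passed the test for all 6, with a median of 0.67, where 24.4% of all genes passed. PFAS had 129 and 116 CPM in 6T-CEM without and with knockdown (log2 fold change -0.15, adjusted p = 0.133) and rose from 29.8 to 63.4 CPM in J.gamma1 (1.09, adjusted p = 5.45e-07). ATIC, which makes IMP in the last steps, had a log2 change of -0.16 in 6T-CEM (adjusted p = 0.0731) and rose in J.gamma1 from 90.6 to 145 CPM (0.68, adjusted p = 1.34e-06). PPAT, the first enzyme of the pathway, was one of the 2 that fell in 6T-CEM (-0.39, adjusted p = 0.000219), with ADSL (-0.30, adjusted p = 0.00134), and both are named after their values were seen. All 6 genes were lower in J.gamma1 than in 6T-CEM controls (median -0.91), where 31.1% of all genes were, and so were APRT and ADA.

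Pyrimidine salvage and deoxynucleotide supply had 1 gene higher and 5 lower of 13 in 6T-CEM, where 16.2% of all genes were lower, and 1 higher and 8 lower of 14 in J.gamma1, where 26.5% were (medians -0.082 and -0.35). DUT, which removes dUTP, fell by 0.37 in 6T-CEM on the log2 scale (adjusted p = 0.000166) and by 0.44 in J.gamma1 (adjusted p = 3.72e-05). TYMS, thymidylate synthase, fell by 0.63 in J.gamma1 (adjusted p = 6.59e-07) and by 0.22 in 6T-CEM (adjusted p = 0.00428, and 0.0617 without sh-NC replicate 1). The large subunit of ribonucleotide reductase, RRM1, fell by 0.56 in J.gamma1 (adjusted p = 2.32e-06) and changed by -0.043 (log2) in 6T-CEM (adjusted p = 0.598), a tested difference of -0.52 (adjusted p = 0.000132). RRM2, its small subunit, fell by 0.36 in J.gamma1 (adjusted p = 4.22e-05) and had a log2 change of 0.024 in 6T-CEM (adjusted p = 0.774). DCTD, deoxycytidylate deaminase, fell from 97.2 to 65.0 CPM in 6T-CEM (-0.58, adjusted p = 4.60e-05) and had 61.7 and 64.9 CPM in J.gamma1 (0.077, adjusted p = 0.327), with a tested difference of 0.65 (adjusted p = 0.000492). CDA, the cytidine deaminase that inactivates cytarabine, had at most 2 counts in any library and was not tested.

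Among the nucleotidases, which NT5C2 belongs to, 1 of 4 was higher and 2 were lower in 6T-CEM, and 2 of 5 higher and 2 lower in J.gamma1. With so few genes this makes 75% and 80% called, against 31.3% and 51.5% of all genes. NT5M, the mitochondrial enzyme, fell from 9.86 to 4.82 CPM in 6T-CEM (log2 change -1.03, adjusted p = 0.000728) and from 21.3 to 5.39 CPM in J.gamma1 (-1.98, adjusted p = 1.13e-06). The difference of -0.95 (adjusted p = 0.0113) was lost without J.gamma1 sh-NC replicate 2 (-0.84, adjusted p = 0.0575). NT5E, the ectonucleotidase CD73, was at 0 counts in all 4 6T-CEM libraries and had 16.7 CPM in J.gamma1 sh-NC. This is at least 145-fold higher than the floor of 3 counts per library in the 6T-CEM controls.

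Transporters had 1 gene higher and 2 lower of 7 in 6T-CEM and 2 higher and 2 lower of 7 in J.gamma1. That is 42.9% and 57.1% called, against 31.3% and 51.5% of all genes. ABCC5, an exporter of nucleotide analogues, rose in both lines, from 61.6 to 90.8 CPM in 6T-CEM (log2 change 0.56, adjusted p = 0.000120) and from 35.3 to 47.7 CPM in J.gamma1 (0.44, adjusted p = 0.000578). SLC29A2, the closest relative of SLC29A1 among the carriers of the list, passed in neither line and was slightly higher in J.gamma1 controls (0.42, adjusted p = 0.0257). That call was lost by DESeq2 (0.44, adjusted p = 0.0504), and without 6T-CEM sh-NC replicate 2 (0.28) or J.gamma1 sh-NC replicate 1 (0.35). The concentrative carriers SLC28A1, SLC28A2 and SLC28A3 had 0 counts in all 8 libraries.

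The list of thiopurine nucleotide clearance and mismatch repair had 1 gene higher and 6 lower of 10 in 6T-CEM, where 16.2% of all genes were lower, and 0 higher and 5 lower of 10 in J.gamma1, where 26.5% were (medians -0.24 and -0.15). In J.gamma1 the share called, 5 of 10, was close to the 51.5% of all genes. EXO1, the repair exonuclease, fell by 0.44 in 6T-CEM (adjusted p = 0.000199) and by 0.93 in J.gamma1 (adjusted p = 3.99e-07).

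**Figure D5:**
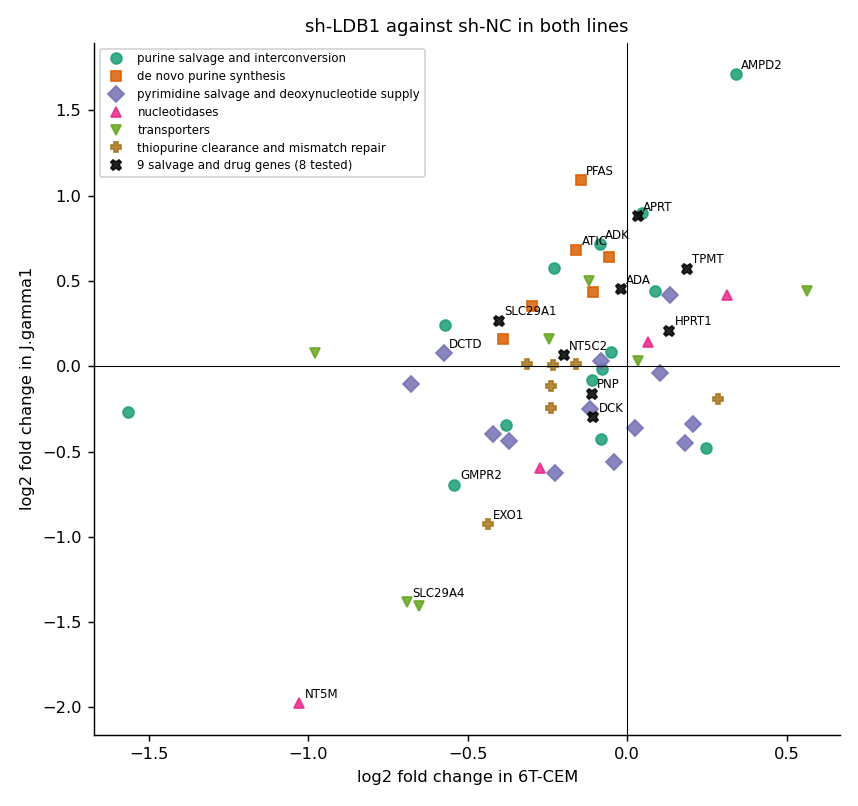
Log2 fold change on LDB1 knockdown in 6T-CEM (horizontal axis) and J.gamma1 (vertical axis) for listed genes tested in both lines, with a colour and shape for each list and black crosses for the 8 salvage and drug genes. The squares of de novo purine synthesis lie above 0 in J.gamma1 and below 0 in 6T-CEM, NT5M and EXO1 fell in both lines, and AMPD2 rose in both.

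The genes whose level over the 8 libraries was most like that of HPRT1 were TTC23 (Pearson r of log2 CPM 0.995), MT1F (0.994) and WHAMMP2 (0.994). All 3 had low levels, with TTC23 at 1.72 CPM in 6T-CEM sh-NC and 3.60 CPM in J.gamma1 sh-NC. Of 17117 genes, 889 had an r above 0.95. The 8 points fall into 2 lines, so an r of this size mostly records which line was higher.

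The guide strand of a hairpin can also pair with other transcripts through its seed (bases 2 to 8), and the sites matching the seeds of the 3 hairpins against LDB1 that the study lists were searched in the 3′ UTRs. The site of the first hairpin, TGACAAT, is found in 9.93% of 19180 genes. For the second hairpin the site CATCTTT is found in 19.0% of these genes. That of the third, GCACTTC, is found in 8.48%. The 3′ UTRs of 8 of the 9 salvage genes hold 0 of these sites, and that of SAMHD1 holds 1, for the second hairpin.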

How the data were processed

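RNA of 8 libraries (4 groups of 2) was analysed. Per the labels and the paper's methods, the authors prepared libraries with a TruSeq RNA kit, mapped paired reads with HISAT2 2.2.0 (genome hg38), used StringTie for quantification and deposited whole-number counts per gene without normalization, in 1 table per cell line, with replicates not pooled. The annotation release, the strand setting and the handling of reads that match several genes are not given in the sources used here, so overlapping genes are uncertain. Of 64252 genes per table, 56105 were matched to a symbol with GENCODE release 44, which also gave loci, exons and 3′ UTRs on GRCh38. Promoters came from RefSeq (GRCh38.p14).

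Groups came from the labels. The 9 genes and the lists around them were chosen with earlier results of these data known. From each of the 6 lists, the rule named up to 3 genes called in both lines in the same direction, up to 2 with the largest called difference of changes and up to 2 with the largest called difference between control groups, with at least 50 normalized counts as the mean of a group, plus 14 genes fixed by name (among them MSH6, PMS2, ADK, DGUOK, RRM1, RRM2, RRM2B, IMPDH2, NT5E, SLC29A2 and CDA). From these, the text gives those that place the 9 genes in their pathways, and some genes of the lists are not reported here.

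The software was edgeR 4.0.16, DESeq2 1.42.0 and limma 3.58.1 under R 4.3.3, with figures by matplotlib 3.10.9 under Python 3.11.15. Each line was fitted by itself with edgeR's quasi-likelihood test (TMM normalization, filterByExpr on low counts, robust fitting, Benjamini-Hochberg adjustment over all genes tested), with no term for the replicate number. The difference between the control groups and the difference of changes came from a fit to all 8 libraries. A standard error is the log2 fold change divided by the root of the F statistic. CPM were TMM-normalised over the 8 libraries. The steps were tested on simulated data, where fewer genes were changed than were called in the real data. Of changes of a log2 of 1, 78 of 97 were recovered in 6T-CEM, 84 of 98 in J.gamma1 and 138 of 200 for the difference. Of smaller changes, 58 of 98, 55 of 99 and 65 of 200 were recovered, and 5.14% to 6.21% of calls were false. Floors of 3 counts cover counting error only. Alternatives covered normalization factors, low-count filters, DESeq2 (the study's tool), a log2 threshold of 1, the replicate block, summed rows of a symbol, 1 fit to all libraries, each library left out, and, added after seeing the data, the merged exon length. The authors' own comparisons were not used.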

Additional observations from a re-analysis of the deposited data

Results flagged for a closer look

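The change on LDB1 knockdown differed between J.gamma1 and 6T-CEM for 4 of the 8 tested genes, by a direct test of the difference in edgeR's quasi-likelihood fit to all 8 libraries. On the log2 scale the difference was 0.84 for APRT, 0.67 for SLC29A1, 0.47 for ADA and 0.26 for NT5C2 (J.gamma1 minus 6T-CEM). In both J.gamma1 sh-LDB1 libraries APRT, ADA and SLC29A1 were above both controls. In 6T-CEM, APRT and ADA overlapped between groups, and SLC29A1 was lower in both knockdown libraries. For NT5C2 the knockdown libraries were lower in 6T-CEM and higher in J.gamma1, and the value in J.gamma1 alone did not pass (adjusted p = 0.353). Of all genes tested 24.4% differed in this way. With 2 libraries per group no single library was tested as an outlier.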

How the results depend on the processing

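Among the knockdown results, the rise of APRT, ADA, TPMT and SLC29A1 in J.gamma1, the fall of SLC29A1 in 6T-CEM and the difference between the lines for APRT, ADA and SLC29A1 kept their direction and call in every alternative run without a fold threshold. Of 432 alternative values of the salvage genes, 392 kept direction and call, 28 lost the call, 6 gained one and 6 changed sign, the last all of values without a call. With library totals only, the log2 fold change of ADA in 6T-CEM was 0.019. With each library left out in turn, APRT in 6T-CEM ranged from -0.020 to 0.095, DCK in 6T-CEM from -0.24 to 0.014, the difference of changes of HPRT1 from -0.011 to 0.17 (-0.0047 without 6T-CEM sh-LDB1 replicate 2) and that of PNP from -0.14 to 0.059.

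The number of salvage genes called, 2 in 6T-CEM, 6 in J.gamma1, 8 between controls and 4 for the difference of changes, became 0, 0, 2 and 0 with a log2 fold change beyond 1 required. The same threshold took the listed pathway genes from 26 to 1 in 6T-CEM, from 37 to 5 in J.gamma1 and from 28 to 3 for the difference. With library totals only, 1 salvage gene was called in 6T-CEM. With each library left out, the salvage genes called were 1 to 2 in 6T-CEM (1 without either sh-NC library), 4 to 6 in J.gamma1, 7 to 8 between controls and 3 to 5 for the difference, and the pathway genes 15 to 20, 34 to 35 and 24 to 28. Where 1 library was left in a group, it was assumed to vary like the other groups. The cause of these shifts was not tested.

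Replicates with the same number did not deviate together over 18552 genes (correlation of deviations -0.014 for J.gamma1 and -0.013 for 6T-CEM). Genes with few counts, where counting error is large, enter these correlations, so the values cannot show whether the numbers pair the samples. With the replicate block, 2 salvage genes were called in 6T-CEM, 7 in J.gamma1, 8 between controls and 5 for the difference. The additional calls were DCK in J.gamma1 (-0.29, adjusted p = 0.0103 by edgeR) and the difference of TPMT (0.38, adjusted p = 0.0498).

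With 2 libraries per group, a log2 fold change of a salvage gene had a standard error of about 0.046 to 0.146, so changes of the size seen for HPRT1 sit at the edge of what was detectable. SAMHD1 and 10 pathway genes were too low to test in either line, and in 6T-CEM 13 pathway genes were.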
